A study of Mus musculus with 6 samples.

Results

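The comparison described here is that of burst-forming unit erythroid cells (BFU-E) given dexamethasone (Dex) together with GW7647 against BFU-E given Dex alone. It compared 4 of the 6 libraries in the series, 2 for each treatment, and all differences are written as both drugs minus Dex. The counts of all 6 entered the filter, the scaling and the estimate of spread. Of 37620 genes in the deposited tables, 14125 passed a filter on raw counts and were tested. BFU-E are the earliest progenitors committed to the red cell lineage. They came from livers of 129/SvImJ mouse embryos at stage E14.5, as c-kit-positive cells in the lowest 10% for CD71, after magnetic removal of cells with mature-lineage markers, Sca-1, CD16/32, CD41 or CD34. Every group was in StemSpan SFEM with 2 U/mL erythropoietin (Epo), 40 ng/mL insulin-like growth factor 1 and 100 ng/mL stem cell factor. The Dex group had 100 nM Dex, the other group had 100 nM Dex and 10 µM GW7647, and an untreated group of 2 libraries had the medium alone. Per the labels treatment lasted 12 h, while the headers of a deposited table carry 36 h, and the length of exposure is therefore uncertain. For the untreated group no time was recorded, so whether its time in culture matched is uncertain too. No group had GW7647 without Dex, so the data give the difference it made on top of Dex only. The labels do not say whether the 2 libraries of a group came from separate embryos or cultures, so every p-value measures the spread between these libraries, which may be technical.

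GW7647 is an agonist of PPARα, a nuclear receptor that pairs with RXR and, in liver and muscle, switches on genes for the import of fatty acids into mitochondria, their beta-oxidation, ketone body synthesis and lipid droplet coats. Dex is an agonist of the glucocorticoid receptor, which is known to favour self-renewal of BFU-E over their maturation. Progenitor cells of this kind express Kit, the stem cell factor receptor, together with the erythroid factors Gata1, Klf1 and Tal1 and the receptors for Epo and transferrin.

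The cells carried those markers under both treatments. All 10 progenitor markers listed for the check (Kit, Gata1, Gata2, Tal1, Klf1, Epor, Tfrc, Myb, Zfpm1, Lmo2) passed the filter, the lowest having a mean of 5238 normalized counts over the 4 libraries, and 1 of them, Gata2, was lower with GW7647. Normalized counts are read counts divided by each library's scaled size. The 4 libraries held between 35970286 and 54174801 counts. Mitochondrially encoded transcripts took 1.72% of the counts in Dex library 1 and between 2.59% and 2.88% in the other 3. The 2 Dex libraries differed more from each other than the 2 libraries with both drugs, with a chi-square per degree of freedom of 20.5 against 3.75, a measure that also rises with depth. In edgeR, calls missed the threshold without library 2 of Dex plus GW7647 for Gata2 (adjusted p = 0.117).

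With GW7647 added, 1374 genes, 9.73% of those tested, differed at an adjusted p below 0.05 in edgeR's quasi-likelihood test with Benjamini-Hochberg adjustment. Of these, 303 (2.15%) were called higher and 1071 (7.58%) lower. The rises were mostly small, with a median of 0.26 on the log2 scale, 203 below 1.25-fold and 16 of at least 2-fold. The falls were larger, with a median size of 0.57, 220 below 1.25-fold and 201 of at least 2-fold. Genes called lower had a median level of 573 normalized counts, against 1757 for those called higher, and the sizes were not matched for level. The median log2 difference over all tested genes was 0.00. In 5 groups of equal size by mean level, from lowest to highest, 3.86%, 13.9%, 9.20%, 6.23% and 4.71% of genes were called lower, with the highest share in the second group, against 0.212%, 1.52%, 3.40%, 3.01% and 2.58% called higher. These are measurements on the RNA of whole cultures, in which fewer cells of a type and less RNA per cell cannot be told apart.

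**Figure D1:**
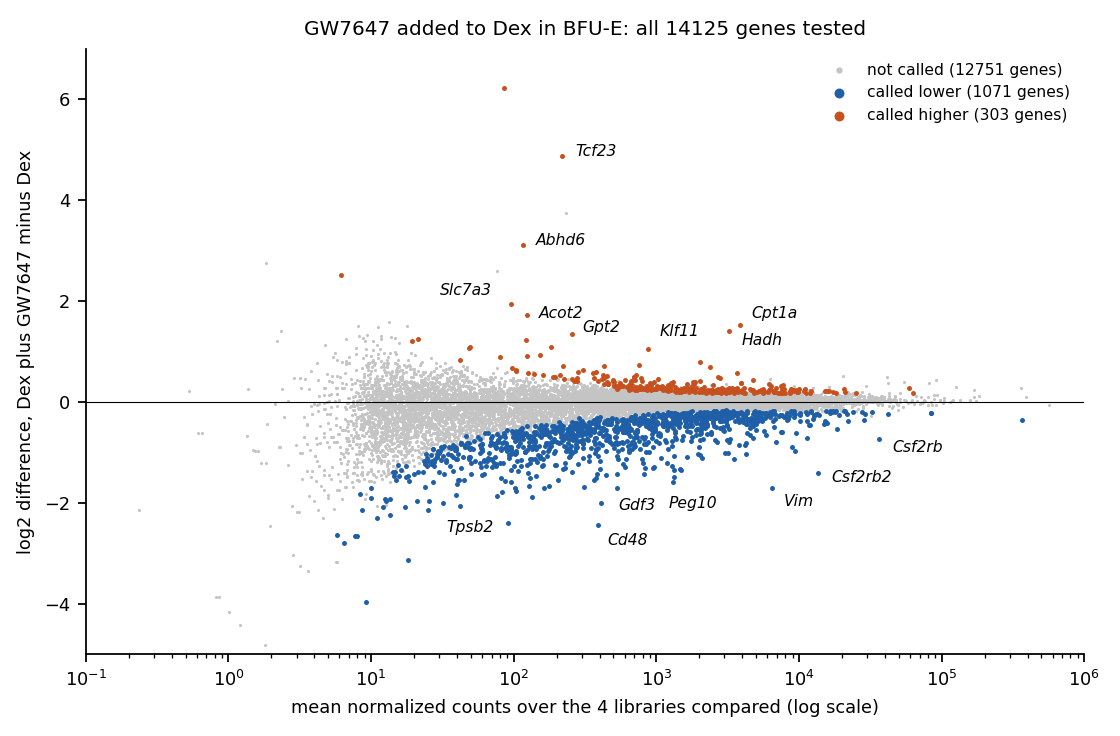
Each point is 1 of 14125 tested genes, with the mean normalized count over the 4 libraries compared on a log axis and the log2 difference, Dex plus GW7647 minus Dex, on the vertical axis. Orange points are the 303 genes called higher and blue points the 1071 called lower at an adjusted p below 0.05; a few strong rises, Tcf23 and Abhd6 among them, stand above a broad set of falls that includes Cd48, Vim and Csf2rb2.

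The number of calls depended on single libraries. It was 548 (64 higher, 484 lower) without library 1 of Dex plus GW7647, 618 (54 higher, 564 lower) without its library 2, and 1729 (618 higher, 1111 lower) without Dex library 2. In each of these, every one of the 1374 calls that could be tested kept its direction. These fits reuse the remaining libraries, so the kept direction is not separate evidence.

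Transcripts of Ppara, the gene for PPARα, were almost undetected in these libraries. Ppara had 1 and 0 reads in the Dex libraries, 1 and 0 with both drugs, and 0 and 1 in untreated cells, and was not tested. A count of 0 allows up to 3 reads, which is 0.0666 CPM, a count scaled to library size, in Dex library 2 and 0.0834 CPM in library 2 of Dex plus GW7647, for counting error only. The other 2 receptors of the family were expressed, and whether GW7647 acted on them at the dose used was not tested. Ppard, the widely expressed PPARδ, stood at 2072 and 1989.6 normalized counts with Dex and 1945 and 1968 with both drugs (log2 -0.05 ± 0.05, edgeR adjusted p = 0.543). Pparg, the PPAR of fat cells and macrophages, stood at 130.4 and 126 with Dex, 39.7 and 34.3 with both drugs and 63.6 and 60.1 in untreated cells. It fell by 1.78 ± 0.17 on the log2 scale with GW7647 (edgeR adjusted p = 0.00014), to below the untreated level.

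Of 21 tested receptors and coregulators of the PPAR and RXR group, 1 was called higher (4.76%) and 2 lower (9.52%). Of all tested genes 2.15% were called higher and 7.58% lower, the background for each list of genes described here, and this group lay near it. The higher member was Nrip1, a corepressor of nuclear receptors also known as RIP140, which went from 3416 and 3442 to 4447 and 4382 (log2 0.36 ± 0.05, edgeR adjusted p = 0.00105). Besides Pparg, Ncoa3, a steroid receptor coactivator, fell from 1314 and 1312 to 976 and 1053. The RXR partners were not called: Rxra had log2 -0.08 ± 0.18 (edgeR adjusted p = 0.83) and Rxrb 0.06 ± 0.06 (edgeR adjusted p = 0.645). Nr3c1, which encodes the glucocorticoid receptor, stood at 2458 and 2679.7 and 2518 and 2601, and the groups overlapped. Ppargc1a, a coactivator of mitochondrial gene programmes, had 0 reads in all 4 libraries. Left out singly, some libraries ended calls in edgeR: library 1 of Dex plus GW7647 for Ncoa3 (adjusted p = 0.0711). Among receptors and coregulators, 1 rose and 1 fell without library 1 of Dex plus GW7647.

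Of 37 tested PPAR target genes of fatty acid metabolism, 9 were called higher and 1 lower, beside 2.15% and 7.58% of all tested genes, and the list median was 0.09 against 0.00 for all. The 9 included genes of import (Cpt1a, Slc25a20), oxidation (Acadvl, Hadh, Eci2, Etfdh), thioester cleavage (Acot2) and storage (Plin2). The exception among calls was Txnip, the thioredoxin-interacting protein, which fell by 0.62 ± 0.06 on the log2 scale. Between 7 and 11 members were called higher when any single library was left out. The list holds textbook targets chosen with earlier results of these data known, so its counts describe these libraries.

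Import of fatty acids into mitochondria rose at 2 steps. Cpt1a, carnitine palmitoyltransferase 1A, the rate-limiting enzyme of the shuttle, stood at 1971 and 2004 normalized counts with Dex and 5889 and 5595 with both drugs, while untreated cells had 2496 and 2486. Both libraries with GW7647 lay far above all 4 others, a 2.89-fold difference (log2 1.53 ± 0.05, edgeR adjusted p = 2.13e-07). Slc25a20, the carnitine-acylcarnitine carrier of the inner membrane, went from 1471 and 1489 to 2497 and 2618, 1.73-fold (edgeR adjusted p = 1.33e-05). Cpt2, which completes the shuttle inside the mitochondrion, had 1896 and 1641 with Dex and 2132 and 2199 with both drugs; these did not overlap, but it missed the threshold (log2 0.29 ± 0.08, edgeR adjusted p = 0.0543). Crat, carnitine acetyltransferase, had log2 0.00 ± 0.05. Of 22 tested genes for carnitine and acyl-CoA, 5 were called higher and 1 lower with a list median of -0.08, and Slc22a4, a carnitine and ergothioneine transporter of the plasma membrane, rose by 0.33 ± 0.07 (edgeR adjusted p = 0.0178). Calls were lost in edgeR without library 1 of Dex plus GW7647 for Slc22a4 (adjusted p = 0.111), library 2 of Dex plus GW7647 for Slc22a4 (adjusted p = 0.133) and Dex library 1 for Slc22a4 (adjusted p = 0.0783). Of the carnitine and acyl-CoA genes, 3 rose and 0 fell without either library of Dex plus GW7647 and 5 rose and 2 fell without Dex library 2.

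Acot2, a mitochondrial acyl-CoA thioesterase, went from 57.9 and 59.1 to 204 and 178, 3.28-fold (edgeR adjusted p = 3.86e-05), but both values lay below the 577 and 599 of untreated cells. Reads of Acot2 can be shared with its near copy Acot1, which had 4 and 4 reads with Dex, 9 and 9 with both drugs and was not tested. Acss2, which makes acetyl-CoA from acetate, was the member called lower, from 4595 and 4537 to 3889 and 3973. Single libraries decided some calls in edgeR, which were lost without library 1 of Dex plus GW7647 for Acss2 (adjusted p = 0.188) and library 2 of Dex plus GW7647 for Acss2 (adjusted p = 0.128).

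Calls within beta-oxidation went both ways. Of 41 tested mitochondrial and peroxisomal genes, 4 were called higher and 4 lower, with a list median of -0.02. Each is 9.76% of the list, beside 2.15% higher and 7.58% lower over all tested genes. Hadh, the dehydrogenase for medium and short chain 3-hydroxyacyl-CoA, went from 1767 and 1761 to 4631 and 4679 normalized counts, 2.64-fold (log2 1.3999 ± 0.06, edgeR adjusted p = 1.75e-06). Untreated libraries had 1822 and 2084, so the libraries with GW7647 stood apart from all others. Etfdh, which passes electrons from these dehydrogenases to ubiquinone, rose from 3874 and 4169.5 to 5447 and 5417, 1.35-fold (edgeR adjusted p = 0.000746). Eci2, an enoyl-CoA isomerase, and Acadvl, the very long chain acyl-CoA dehydrogenase, rose by 0.23 ± 0.05 and 0.18 ± 0.05 on the log2 scale (edgeR adjusted p = 0.00981 and 0.0494). The edgeR threshold was missed without library 1 of Dex plus GW7647 for Acadvl and Eci2 (adjusted p from 0.0825 to 0.148), library 2 of Dex plus GW7647 for Acadvl and Eci2 (adjusted p from 0.138 to 0.386) and Dex library 2 for Acadvl (adjusted p = 0.0869). Under DESeq2 the same held for Acadvl (adjusted p = 0.108). For beta-oxidation genes, 2 rose and 0 fell without either library of Dex plus GW7647 and 5 rose and 1 fell without Dex library 1.

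The trifunctional protein, which acts on long chains, was not called: Hadha stood at 9683 and 9622 with Dex and 9413 and 9687 with both drugs, and Hadhb at 2518 and 2752 and 2535 and 2708, with overlapping groups for both. The other acyl-CoA dehydrogenases Acadm and Acadl had log2 -0.09 ± 0.05 and -0.08 ± 0.06, and neither was called. Peroxisomal members made up part of the calls in the other direction. Abcd2, a peroxisomal importer of very long chain fatty acids, fell from 134 and 149 to 90.3 and 82.7, and Acox2, a branched-chain oxidase at low level, fell from 15.4 and 15.9 to 3.61 and 4.72. Under DESeq2, which gave Acox2 no adjusted p, 3 genes of the beta-oxidation list were called higher and 0 lower. Some calls were not made by edgeR without library 1 of Dex plus GW7647 for Abcd2 and Acox2 (adjusted p from 0.071 to 0.232), library 2 of Dex plus GW7647 for Abcd2 and Acox2 (adjusted p from 0.106 to 0.127), Dex library 1 for Acox2 (adjusted p = 0.0852) and Dex library 2 for Acox2 (adjusted p = 0.0611). DESeq2 did not call Abcd2 (adjusted p = 0.0679).

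Oxct1, which breaks ketone bodies down, fell from 4691 and 5045 to 3906 and 3698 (edgeR adjusted p = 0.00302). In edgeR, calls missed the threshold without library 2 of Dex plus GW7647 for Oxct1 (adjusted p = 0.0528).

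Genes of fatty acid uptake and lipid droplets went both ways, 3 higher and 3 lower of 22 tested, each 13.6% beside 2.15% higher and 7.58% lower over all tested genes. Plin2, the coat protein of lipid droplets in most cells, rose from 6752 and 6574 to 8373 and 8241 (log2 0.32 ± 0.04, edgeR adjusted p = 0.0015). Hilpda, a droplet protein that restrains lipolysis, rose by 0.39 ± 0.08, and Mgll, monoacylglycerol lipase, rose from 34.7 and 27.2 to 52.4 and 83.9. Plin3, another coat protein, fell from 2236 and 2176 to 1358 and 1359 (log2 -0.70 ± 0.05, edgeR adjusted p = 3.13e-05), and Dgat2, a triglyceride-forming acyltransferase, fell by 0.82 ± 0.20. Angptl4, an inhibitor of lipoprotein lipase and a common PPAR target, stood at 144 and 138 with Dex and 116 and 98.0 with both drugs, and was not called (log2 -0.39 ± 0.13, edgeR adjusted p = 0.0877). Left out singly, some libraries ended calls in edgeR: library 1 of Dex plus GW7647 for Dgat2 and Hilpda (adjusted p from 0.183 to 0.209), library 2 of Dex plus GW7647 for Dgat2 and Mgll (adjusted p from 0.135 to 0.15), Dex library 1 for Dgat2 (adjusted p = 0.119) and Dex library 2 for Mgll (adjusted p = 0.0554). Under DESeq2 the same held for Dgat2 and Hilpda (adjusted p from 0.0565 to 0.187). Among uptake and droplet genes, 2 rose and 1 fell without either library of Dex plus GW7647 and 3 rose and 1 fell without Dex library 1.

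A further 10 targets of the list had between 0 and 9 reads in every library and were not tested. Cyp4a10, Cyp4a14, Fabp1 and Fgf21, which PPARα is known to drive in liver, had 0 reads in all 6. Pdk4, a kinase that holds back pyruvate dehydrogenase, had 9 and 6 reads with Dex and 9 and 6 with both drugs.

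**Figure D2:**
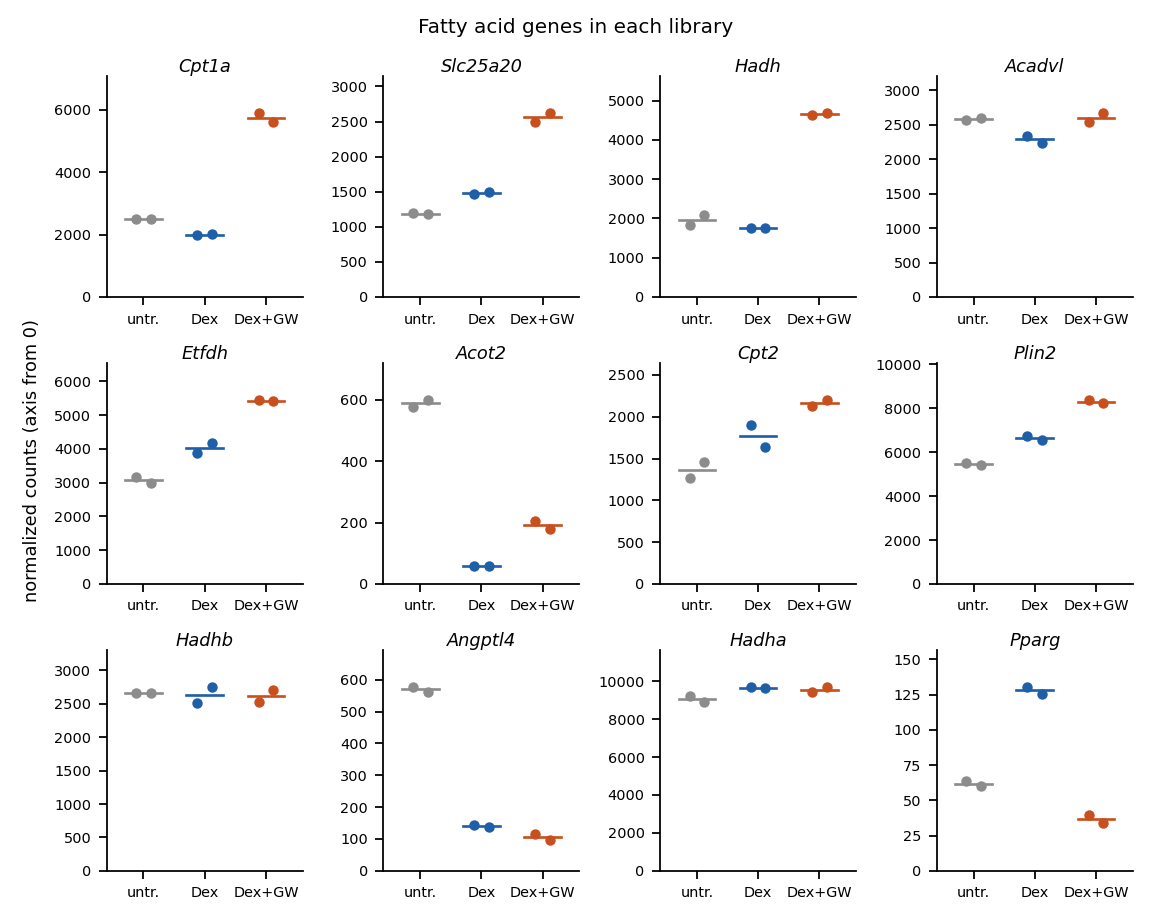
Normalized counts of 12 genes of fatty acid metabolism in every library, 2 points per group and a line at their mean, with each vertical axis starting at 0 (untr., untreated; Dex+GW, Dex plus GW7647). Cpt1a, Slc25a20, Hadh and Etfdh are above all other libraries with GW7647, Hadha and Hadhb overlap with Dex, and Pparg is below both other groups.

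The promoters of these genes were searched for the letters that the receptor is known to bind. PPAR with RXR is known to bind a direct repeat of a hexamer spaced by 1 base, searched here as 2 copies of AGGNCA in the same direction with any 1 base between them, on both strands in the 300 bases from 250 before to 50 after each RefSeq transcript start (GRCm38.p6). The repeat was in 0 of 233 genes called higher that had a promoter entry, and in 0 of the 8 PPAR targets among them. It was in 3 of 816 called lower (0.368%), 25 of 8937 not called (0.280%), and 122 of 27025 genes in all (0.451%, and 0.381% of windows). At such shares few or no matches are expected among 233 or 8 genes, so a count of 0 there decides nothing. The hexamer AGGTCA by itself, searched on both strands after the values were seen, was in 18.1% of all genes and 16.3% of all windows. By call, it was in 17.2% of genes called higher, 16.7% of those called lower and 14.7% of those not called. Of the 8 PPAR targets called higher that had an entry, 3 held the hexamer. Those windows are shown 5′ to 3′ on the gene's strand, with the hexamer or its complement TGACCT in capitals. A match is only a match of letters in this window. The Cpt1a window is chr19:3323051-3323350 on the plus strand and holds TGACCT with its first base 94 before the start, the Plin2 window is chr4:86670010-86670309 on the minus strand with TGACCT 218 before, and the Acadvl window is chr11:70015379-70015678 on the minus strand with AGGTCA 87 before.
Cpt1a: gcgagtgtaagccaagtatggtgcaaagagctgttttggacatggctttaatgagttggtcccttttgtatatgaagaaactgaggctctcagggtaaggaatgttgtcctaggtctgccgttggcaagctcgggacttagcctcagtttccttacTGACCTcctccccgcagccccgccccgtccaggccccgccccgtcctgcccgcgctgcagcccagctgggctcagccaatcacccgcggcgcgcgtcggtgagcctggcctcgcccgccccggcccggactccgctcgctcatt
Plin2: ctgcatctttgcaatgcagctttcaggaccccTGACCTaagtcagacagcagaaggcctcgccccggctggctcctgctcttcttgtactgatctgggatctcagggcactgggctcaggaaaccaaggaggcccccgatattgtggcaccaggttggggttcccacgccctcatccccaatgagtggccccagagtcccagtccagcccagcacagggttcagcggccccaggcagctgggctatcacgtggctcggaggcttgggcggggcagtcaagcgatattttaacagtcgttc
Acadvl: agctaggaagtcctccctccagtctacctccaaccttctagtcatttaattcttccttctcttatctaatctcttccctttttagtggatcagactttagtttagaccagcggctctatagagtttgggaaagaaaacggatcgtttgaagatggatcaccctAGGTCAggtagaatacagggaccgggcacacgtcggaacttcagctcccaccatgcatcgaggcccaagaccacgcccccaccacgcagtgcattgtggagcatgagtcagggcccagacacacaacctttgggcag

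Outside fatty acid oxidation, a small group of genes rose by more than 2-fold. Tcf23, a basic helix-loop-helix factor, stood at 13.9 and 15.002 normalized counts with Dex, 18.3 and 15.032 in untreated cells and 419 and 426 with both drugs, a 29.1-fold rise (log2 4.86 ± 0.16, edgeR adjusted p = 2.39e-07). Abhd6, a monoacylglycerol hydrolase, stood at 20.1 and 28.1 with Dex and 182 and 231 with both drugs, 8.61-fold (edgeR adjusted p = 1.64e-05), with 121 and 129.5 in untreated cells. Its neighbours in the gene order, Rpp14 and Pxk, rose as well, by 0.58 ± 0.05 and 0.53 ± 0.09 on the log2 scale. Those 3 were the only run of at least 3 adjacent tested genes called higher, against 14 such runs called lower. Lower calls were also more frequent over all tested genes, 7.58% against 2.15% higher. Pdhb and Kctd6, near those 3 genes in the same region, were not called (log2 0.01 ± 0.04 and 0.03 ± 0.06). Acox2, also in that region and at low level, was called lower (log2 -1.90 ± 0.43). Calls were lost in edgeR without library 1 of Dex plus GW7647 for Pxk (adjusted p = 0.0505).

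Klf11, a Krüppel-like repressor, rose from 576 and 568 to 1166 and 1199, 2.06-fold (edgeR adjusted p = 1.91e-05), and its relative Klf10 rose by 0.45 ± 0.07. Runx1t1, the corepressor ETO, rose from 72.5 and 72.2 to 181 and 159 (edgeR adjusted p = 0.000548). Ackr3, an atypical chemokine receptor, went from 92.6 and 121 to 199 and 202, still far below the 3047 and 2979 of untreated cells. Rragd, a Rag GTPase of nutrient sensing, and Adm2, a peptide hormone, rose by 0.92 ± 0.17 and 0.89 ± 0.16. For all 6 genes both libraries with GW7647 lay above both Dex libraries. Single libraries decided some calls in edgeR, which were lost without library 2 of Dex plus GW7647 for Rragd (adjusted p = 0.0579).

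Genes for making and importing amino acids were called in both directions. Of 20 tested amino acid synthesis enzymes, 8 were called higher and 1 lower, and of 16 tested carriers of families 7 and 38, 5 higher and 2 lower, with medians of 0.07 and 0.07. Both sets were picked after values were seen. The falls were in Ass1, which makes argininosuccinate, from 163 and 204 to 117 and 115 (log2 -0.65 ± 0.14), and in the carriers Slc7a8 and Slc38a5, by 0.73 ± 0.10 and 0.26 ± 0.05. Slc7a3, a cationic amino acid transporter, went from 37.0 and 41.3 to 141 and 161, 3.84-fold (edgeR adjusted p = 0.000115). Gpt2, the mitochondrial alanine aminotransferase, went from 153 and 133 to 350.2 and 383, 2.55-fold (edgeR adjusted p = 6.02e-05), and Cth, which makes cysteine from cystathionine, from 107 and 125 to 268 and 224, 2.14-fold (edgeR adjusted p = 0.000741). For all 3 the Dex libraries were below untreated cells, which had 115 and 139.9, 356 and 335 and 291 and 294 in the same order. The edgeR threshold was missed without library 1 of Dex plus GW7647 for Ass1 and Slc38a5 (adjusted p from 0.0946 to 0.16) and library 2 of Dex plus GW7647 for Ass1 and Slc38a5 (adjusted p from 0.0767 to 0.0912). Of the amino acid synthesis enzymes, 3 rose and 0 fell without either library of Dex plus GW7647 and 6 rose and 3 fell without Dex library 2. For carriers, 3 rose and 1 fell without library 1 of Dex plus GW7647 and 2 rose and 1 fell without library 2 of Dex plus GW7647.

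Of 30 tested genes of the stress response and serine synthesis, 10 were called higher and 0 lower, with a median of 0.09. They included Slc7a11, the cystine importer, from 519 and 615 to 916 and 959 (edgeR adjusted p = 0.000524), Chac1, which degrades glutathione (log2 0.63 ± 0.10), and the serine pathway genes Psph, Phgdh, Psat1 and Mthfd2, at log2 values from 0.20 to 0.27. Atf4, the transcription factor of this response, rose by 0.20 ± 0.05 (edgeR adjusted p = 0.0288), while its stress partner Ddit3 and the chaperone Hspa5 had log2 -0.01 and -0.03. Some calls were not made by edgeR without library 1 of Dex plus GW7647 for Atf4, Mthfd2, Phgdh, Psat1 and Psph (adjusted p from 0.103 to 0.308), library 2 of Dex plus GW7647 for Atf4, Mthfd2, Phgdh, Psat1 and Psph (adjusted p from 0.0516 to 0.22) and Dex library 2 for Atf4 and Phgdh (adjusted p from 0.0538 to 0.0794). Among stress and serine genes, 2 rose and 0 fell without either library of Dex plus GW7647.

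Sterol and fatty acid synthesis was called higher for 8 of 32 tested genes and lower for 0, with a median of 0.08. The rises were small. Scd1, the stearoyl-CoA desaturase, went from 5528 and 5770.0 to 6928 and 7139 (log2 0.32 ± 0.05, edgeR adjusted p = 0.0021), Tm7sf2 and Dhcr7 of late sterol synthesis rose by 0.35 ± 0.07 and 0.25 ± 0.05, and Fads2 and Elovl6 of fatty acid desaturation and elongation by 0.25 ± 0.06 and 0.23 ± 0.05. Among 11 targets of LXR, the oxysterol receptor, Scd1 was the higher call and Abcg1, a cholesterol exporter, the lower, from 1544 and 1396 to 1073 and 1083 (edgeR adjusted p = 0.00295), and Srebf1 had log2 -0.04 ± 0.07. In edgeR, calls missed the threshold without library 1 of Dex plus GW7647 for Dhcr7, Elovl6, Fads2 and Tm7sf2 (adjusted p from 0.0739 to 0.113), library 2 of Dex plus GW7647 for Dhcr7, Elovl6, Fads2 and Tm7sf2 (adjusted p from 0.0767 to 0.18) and Dex library 1 for Elovl6 (adjusted p = 0.0733). Of the synthesis genes, 1 rose and 0 fell without either library of Dex plus GW7647. For LXR targets, 2 rose and 1 fell without Dex library 2.

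Among targets of the glucocorticoid receptor, Fkbp5 was not called, while others such as Tsc22d3 and Dusp1 fell. Fkbp5, a co-chaperone and standard marker of receptor activity, stood at 5388 and 5273 normalized counts with Dex and 5457 and 5435 with both drugs (log2 0.03 ± 0.04, edgeR adjusted p = 0.732). The metallothioneins Mt1 and Mt2 had log2 0.08 ± 0.08 and 0.02 ± 0.06, and Per1, Ddit4 and Klf9 had -0.14, -0.10 and -0.10, with none of them called. Of 26 tested glucocorticoid receptor targets, 0 were called higher and 7 lower (26.9%, beside 7.58% of all tested genes), with a median of -0.18. Anxa1, an anti-inflammatory annexin, fell from 417 and 383 to 227 and 195 (log2 -0.92 ± 0.10, edgeR adjusted p = 0.000378). Dusp1, a MAP kinase phosphatase, fell from 692 and 712 to 454 and 481 (edgeR adjusted p = 0.00118), and Zfp36, an mRNA-decay factor, from 2343 and 2164 to 1486 and 1593 (edgeR adjusted p = 0.000388). Cebpd, a C/EBP factor, fell by 1.15 ± 0.21, from 98.0 and 71.3 to 36.1 and 41.3. In untreated cells Anxa1 stood at 644 and 639 and Dusp1 at 901 and 1008, above the Dex libraries for both. Untreated levels of Zfp36 were 2036 and 2135 and those of Cebpd 92.9 and 94.8. Tsc22d3, also called GILZ, and Zfp36l2, needed for BFU-E self-renewal, fell by 0.24 ± 0.05 and 0.19 ± 0.04. Tsc22d3 stood at 719 and 762 in untreated cells, 1909 and 1843 with Dex and 1610.2 and 1571 with both drugs, and Zfp36l2 at 9072 and 9381, 22210.1 and 21519 and 19160.2 and 19211 in the same order. Left out singly, some libraries ended calls in edgeR: library 1 of Dex plus GW7647 for Cebpd, Tsc22d3 and Zfp36l2 (adjusted p from 0.0865 to 0.213), library 2 of Dex plus GW7647 for Tsc22d3 and Zfp36l2 (adjusted p = 0.209) and Dex library 1 for Tsc22d3 and Zfp36l2 (adjusted p from 0.0678 to 0.0719). Among glucocorticoid receptor targets, 0 rose and 3 fell without library 1 of Dex plus GW7647, 0 rose and 4 fell without library 2 of Dex plus GW7647 and 1 rose and 4 fell without Dex library 1.

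Genes of red cell differentiation were called in both directions. Of 42 tested, 2 were called higher (4.76%) and 5 lower (11.9%), with a median of -0.01. Of all tested genes, 2.15% were called higher and 7.58% lower. The Gata1 level was 10662 and 10226 with Dex and 10374 and 10348 with both drugs (log2 -0.01 ± 0.05, edgeR adjusted p = 0.924), and Klf1 and Epor had log2 -0.05 ± 0.07 and -0.01 ± 0.07; the groups overlapped for all 3. Hbb-y, an embryonic beta-like globin, had the largest change, from 776 and 693 to 330.3 and 341 (log2 -1.13 ± 0.10, edgeR adjusted p = 7.04e-05), with 35.5 and 46.3 in untreated cells. Hbb-bh1, another embryonic globin, and the adult Hbb-bt fell by 0.38 ± 0.09 and 0.36 ± 0.08. Hbb-bt stood at 442319 and 378318 with Dex and 333192 and 306354 with both drugs, above Hba-a1 and Hba-a2 in level. Other adult globins were not called: Hbb-bs had log2 -0.06 ± 0.04, Hba-a1 0.11 ± 0.08 and Hba-a2 0.02 ± 0.10. A caution is that near-identical globin genes share reads. Car2, carbonic anhydrase 2, fell by 0.22 ± 0.05, and Hemgn, an erythroid nuclear protein, rose by 0.22 ± 0.05, from 5016 and 5445 to 6098 and 6072. Globin transcripts took 3.12% and 2.96% of all counts with Dex and 2.82% and 2.75% with both drugs. Calls were lost in edgeR without library 1 of Dex plus GW7647 for Car2, Hbb-bh1 and Hemgn (adjusted p from 0.118 to 0.193), library 2 of Dex plus GW7647 for Car2, Hbb-bh1, Hbb-bt and Hemgn (adjusted p from 0.126 to 0.211) and Dex library 1 for Hbb-bh1, Hbb-bt and Hemgn (adjusted p from 0.0534 to 0.0949). DESeq2 did not call Hbb-bh1 (adjusted p = 0.0856). Of the red cell genes, 0 rose and 2 fell without library 1 of Dex plus GW7647, 0 rose and 1 fell without library 2 of Dex plus GW7647, 2 rose and 3 fell without Dex library 1 and 4 rose and 4 fell without Dex library 2.

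Heme and iron genes were called higher for 3 and lower for 2 of 26, with a median of 0.02. These shares are 11.5% and 7.69%, beside 2.15% and 7.58% of all tested genes. Ftl1, the ferritin light chain, went from 53222 and 53490.5 to 63337 and 66198 (log2 0.28 ± 0.05), Slc40a1, the iron exporter ferroportin, rose by 0.30 ± 0.07, and Aco1, which doubles as an iron-responsive RNA-binding protein, fell by 0.29 ± 0.05. Single libraries decided some calls in edgeR, which were lost without library 1 of Dex plus GW7647 for Aco1, Ftl1 and Slc40a1 (adjusted p from 0.0505 to 0.152), library 2 of Dex plus GW7647 for Ftl1 and Slc40a1 (adjusted p from 0.118 to 0.121) and Dex library 1 for Slc40a1 (adjusted p = 0.0804). For heme and iron genes, 0 rose and 0 fell without library 1 of Dex plus GW7647 and 0 rose and 1 fell without library 2 of Dex plus GW7647.

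Kit itself stood at 12682 and 12629.6 with Dex and 12795 and 12886 with both drugs (log2 0.02 ± 0.04, edgeR adjusted p = 0.815). Of 27 tested stem and early progenitor genes, 1 was called higher and 8 lower, with a median of -0.15. Hmga2, a chromatin protein of fetal progenitors, fell from 478 and 451 to 284 and 281 (log2 -0.72 ± 0.08, edgeR adjusted p = 0.000565). Cd34, a surface marker of early progenitors, fell by 0.58 ± 0.11, Tek, the angiopoietin receptor, by 1.03 ± 0.19, and Gata2 by 0.29 ± 0.05. Myb and Myc were not called, at log2 -0.15 ± 0.05 and -0.05 ± 0.05. The edgeR threshold was missed without library 1 of Dex plus GW7647 for Cd34 (adjusted p = 0.108) and library 2 of Dex plus GW7647 for Gata2 and Tek (adjusted p from 0.0619 to 0.117). Among progenitor genes, 0 rose and 3 fell without library 1 of Dex plus GW7647, 0 rose and 4 fell without library 2 of Dex plus GW7647 and 1 rose and 5 fell without Dex library 1.

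Of 40 tested cell cycle genes, 2 were called higher (5%, beside 2.15% of all tested genes) and 0 lower, with a median of 0.09. Ccnb1, cyclin B1, and Aurkb, a mitotic kinase, had log2 0.24 ± 0.06 and 0.19 ± 0.05 (edgeR adjusted p = 0.04999 and 0.0312). Mki67 had 45890.1 and 50486 with Dex and 54254 and 55050.5 with both drugs and missed the threshold (edgeR adjusted p = 0.107). Among 17 cell cycle inhibitors, 6 were called lower and 2 higher. Cdkn1c and Cdkn2b, which encode p57 and p15, fell by 1.22 ± 0.18 and 1.15 ± 0.16, Cdkn1a, which encodes p21, fell by 0.26 ± 0.05, and Cdkn2c, which encodes p18, rose by 0.37 ± 0.08. Some calls were not made by edgeR without library 1 of Dex plus GW7647 for Aurkb, Ccnb1, Cdkn1a and Cdkn2c (adjusted p from 0.0515 to 0.188), library 2 of Dex plus GW7647 for Aurkb, Ccnb1, Cdkn1a and Cdkn2c (adjusted p from 0.0519 to 0.297) and Dex library 1 for Aurkb and Ccnb1 (adjusted p from 0.0587 to 0.173). Of the cell cycle genes, 0 rose and 0 fell without either library of Dex plus GW7647, 1 rose and 0 fell without Dex library 1 or either untreated library and 8 rose and 0 fell without Dex library 2. For cell cycle inhibitors, 0 rose and 2 fell without either library of Dex plus GW7647 and 1 rose and 4 fell without Dex library 1.

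Both beta chains of the interleukin 3 receptor fell. Csf2rb2, the beta subunit specific to interleukin 3, stood at 19722 and 19851 normalized counts with Dex, 7374 and 7458 with both drugs and 6406 and 6532 in untreated cells. It fell by 1.42 ± 0.04 on the log2 scale (edgeR adjusted p = 2.13e-07), so that the libraries with GW7647 were nearer to untreated cells than to Dex. Csf2rb, the beta subunit shared by the receptors for interleukin 3, interleukin 5 and GM-CSF, fell from 45439.5 and 45346 to 26902 and 27522 (log2 -0.74 ± 0.05, edgeR adjusted p = 1.08e-05). The 2 genes are near copies, and reads may be divided between them. Their alpha partners Csf2ra and Il3ra were not called, at log2 -0.00 ± 0.09 and -0.21 ± 0.17.

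Of 38 tested genes of Kit, Epo and cytokine signalling, 1 was called higher (2.63%) and 6 lower (15.8%), with a median of -0.09. The shares over all tested genes were 2.15% higher and 7.58% lower. Lyn, a Src-family kinase, fell from 4921 and 5045 to 3653 and 3713 (edgeR adjusted p = 0.000263), and Ptpn6, the phosphatase SHP-1, from 1934 and 1980.2 to 1235 and 1384 (edgeR adjusted p = 0.000316). Spry1, a feedback inhibitor of receptor tyrosine kinases, fell by 0.48 ± 0.07. The core of Epo signalling was not called: Jak2 had log2 -0.04 ± 0.05, Stat5a -0.01 ± 0.05 and Stat5b 0.03 ± 0.05, and the targets Pim1 and Cish -0.04 ± 0.05 and -0.18 ± 0.05. Of 18 immediate early factors, 2 were lower, 11.1% beside 7.58% of all tested genes (Ier5 and Klf6, log2 -0.48 ± 0.08 and -0.26 ± 0.06). In edgeR, calls missed the threshold without library 1 of Dex plus GW7647 for Klf6 (adjusted p = 0.162), library 2 of Dex plus GW7647 for Klf6 (adjusted p = 0.183) and Dex library 2 for Klf6 (adjusted p = 0.0915). Among signalling genes, 0 rose and 6 fell without either library of Dex plus GW7647 and 0 rose and 9 fell without Dex library 2. Of the immediate early factors, 0 rose and 1 fell without either library of Dex plus GW7647 and 1 rose and 1 fell without Dex library 2.

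The largest falls named by the rule included surface proteins of white blood cells, a growth factor and a cytoskeletal gene. Cd48, a surface protein of the SLAM family, stood at 606 and 712 with Dex, 125 and 116 with both drugs and 280.0 and 251 in untreated cells (log2 -2.44 ± 0.12, edgeR adjusted p = 3.35e-06). Vim, the intermediate filament vimentin, stood at 10347 and 9606 with Dex, 3072 and 3039 with both drugs and 2558 and 2627 in untreated cells (log2 -1.71 ± 0.05, edgeR adjusted p = 2.13e-07). Gdf3, a growth factor of the TGF-β family, went from 623 and 684 to 159 and 168 (log2 -2.0017 ± 0.09, edgeR adjusted p = 2.74e-06). For each of these 3 genes the libraries of the 2 treatments did not overlap. Peg10, an imprinted gene derived from a retrotransposon, fell from 1915 and 1988 to 652 and 651 (log2 -1.58 ± 0.06).

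Further falls of this size were in receptors and surface proteins: Gpr174, a lysophosphatidylserine receptor (log2 -1.71 ± 0.10), Il1r1, the signalling receptor of interleukin 1 (-1.69 ± 0.11), Mst1r, the receptor tyrosine kinase RON (-1.71 ± 0.20), Amigo2, an adhesion molecule (-1.68 ± 0.18), and Mmp14, a membrane-bound metalloproteinase (-1.87 ± 0.18). Il1r1 had 33.0 and 40.5 normalized counts in untreated cells, 486 and 469.7 with Dex and 139.9 and 157 with both drugs. Tnr, the matrix protein tenascin R, went from 255 and 242 to 81.2 and 70.9, and Tcrg-C1, a T cell receptor gamma constant segment, from 154 and 166 to 50.5 and 42.5.

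**Figure D3:**
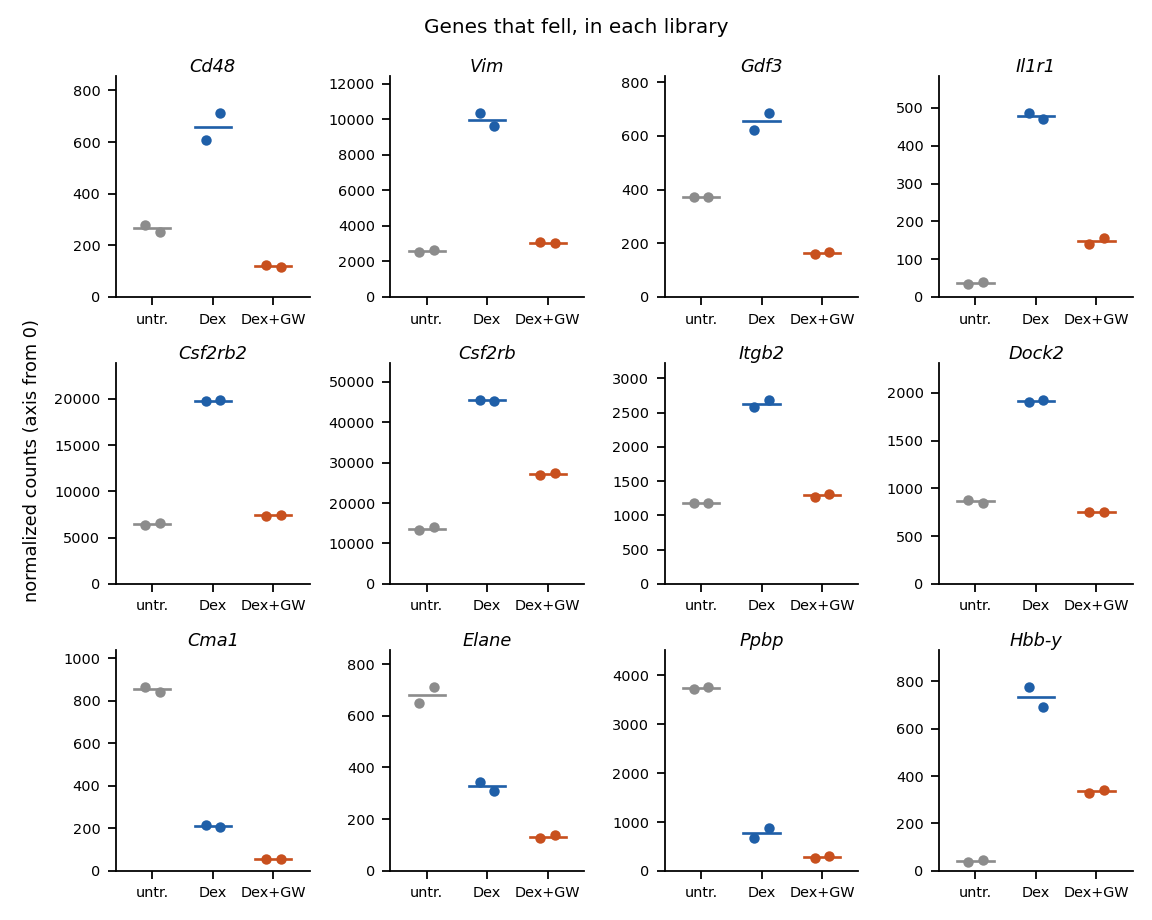
Normalized counts of 12 genes called lower with GW7647, in every library, 2 points per group and a line at their mean, with each vertical axis starting at 0 (untr., untreated; Dex+GW, Dex plus GW7647). For Vim, Csf2rb2, Itgb2 and Dock2 the libraries with both drugs sit near the untreated ones and below Dex, while for Cma1, Elane and Ppbp they are the lowest of the 3 groups.

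Leukocyte adhesion and chemokine receptor genes were called lower for 12 of 23 tested members and higher for 1, Ackr3, with a median of -0.49. Itgb2, the beta chain of leukocyte integrins, fell from 2579 and 2682 to 1270.0 and 1314 (log2 -1.03 ± 0.05, edgeR adjusted p = 3.54e-06), and Itgb7 and Itga2b, other integrin chains, by 0.68 ± 0.07 and 0.59 ± 0.06. Selplg, the selectin ligand PSGL-1, fell by 0.72 ± 0.09, and Pecam1, CD31, by 0.80 ± 0.11. Itgb1, Itga4 and Cd44, which anchor progenitors to matrix and stroma, were not called, at log2 0.03, -0.12 and -0.02. Dock2, an activator of Rac in blood cells, and Coro1a, an actin-binding coronin, are on no list; they fell from 1906 and 1925 to 748 and 754 and from 3077 and 2665 to 1330.4 and 1344 and were chosen after their values were seen.

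Of 22 tested genes of NF-κB and inflammation, 8 were called lower and 0 higher, with a median of -0.47. Alox5, the lipoxygenase that begins leukotriene synthesis, fell from 4862 and 4922 to 2701 and 2716 (log2 -0.85 ± 0.05, edgeR adjusted p = 8.42e-06). Tnfaip3, the deubiquitinase A20, fell from 809 and 815 to 435 and 457 (edgeR adjusted p = 0.000742), Icam1, an adhesion ligand, from 241 and 220.3 to 117 and 102, and Ptgs1, cyclooxygenase 1, from 328 and 275 to 167 and 156. Relb, an NF-κB subunit, fell by 0.66 ± 0.09, while Rela and Nfkbia were not called (-0.02 and -0.29 ± 0.08). Interferon-stimulated genes went both ways, 2 higher and 4 lower of 22 (9.09% and 18.2%, beside 2.15% and 7.58% of all tested genes). Rsad2, an antiviral enzyme, rose by 0.46 ± 0.08, and Bst2, which tethers virions, and Isg15 fell by 0.46 ± 0.06 and 0.45 ± 0.09. Left out singly, some libraries ended calls in edgeR: library 1 of Dex plus GW7647 for Isg15 (adjusted p = 0.108) and library 2 of Dex plus GW7647 for Isg15 and Rsad2 (adjusted p from 0.0681 to 0.104). For inflammatory genes, 0 rose and 5 fell without library 1 of Dex plus GW7647. Among interferon-stimulated genes, 1 rose and 1 fell without library 1 of Dex plus GW7647 and 0 rose and 1 fell without library 2 of Dex plus GW7647.

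Hypoxia and glycolysis genes were called higher for 4 and lower for 4 of 32, each 12.5% beside 2.15% higher and 7.58% lower over all tested genes. Slc2a3, a glucose transporter, fell from 21644 and 22438 to 15094 and 15124 (log2 -0.54 ± 0.04, edgeR adjusted p = 4.93e-05), and Egln3 and Aldoc fell by 0.38 ± 0.05 and 0.42 ± 0.08. Vegfa rose by 0.37 ± 0.06 and Pdk1, which inhibits pyruvate dehydrogenase, by 0.24 ± 0.05. Of 24 apoptosis genes, 4 were called lower (16.7%, beside 7.58% of all tested genes) and 0 higher, and those 4 include opposite roles. The death-promoting Pmaip1 and Bbc3 fell by 0.52 ± 0.07 and 0.29 ± 0.07, while the inhibitor Birc3 fell by 0.40 ± 0.06. Calls were lost in edgeR without library 1 of Dex plus GW7647 for Aldoc, Bbc3, Birc3 and Pdk1 (adjusted p from 0.0505 to 0.193), library 2 of Dex plus GW7647 for Aldoc, Bbc3 and Pdk1 (adjusted p from 0.0754 to 0.0867) and Dex library 1 for Bbc3 (adjusted p = 0.0879). Of the hypoxia and glycolysis genes, 1 rose and 2 fell without either library of Dex plus GW7647. For apoptosis genes, 0 rose and 2 fell without library 1 of Dex plus GW7647.

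**Figure D4:**
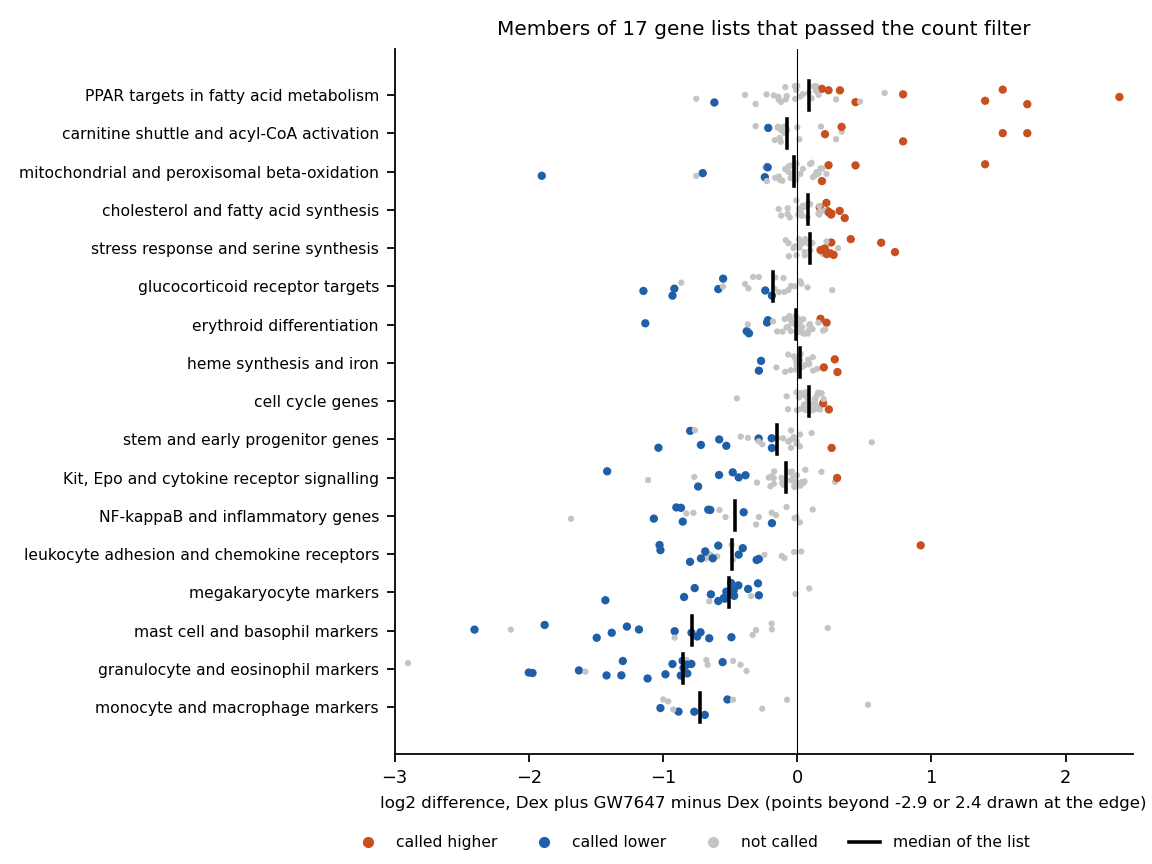
Each point is a tested member of the gene list named at the left, placed by its log2 difference, Dex plus GW7647 minus Dex; orange was called higher, blue lower and grey not called, and the black bar is the list median. Medians of the lists drawn lie between -0.85 and 0.09 (other lists are not drawn), and the lists of white cell and megakaryocyte markers hold many blue points.

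Many markers of other blood cells that the sorted fraction could hold fell with GW7647. Of 21 tested megakaryocyte markers, 17 were called lower and 0 higher, with a median of -0.51. Ppbp and Pf4, chemokines of platelet granules, fell from 677 and 874 to 265 and 312 and from 4033 and 3584 to 2698 and 2514 (log2 -1.43 ± 0.12 and -0.55 ± 0.07, edgeR adjusted p = 7.97e-05 and 0.000808). Cd9 and Thbs1 fell by 0.44 ± 0.05 and 0.37 ± 0.04, whereas F2r and Gp1ba were not called, at -0.01 and 0.09. Of 19 tested mast cell and basophil markers, 12 were called lower and 0 higher, with a median of -0.79. Tpsb2, a mast cell tryptase whose reads can be shared with Tpsab1, fell from 169.7 and 138 to 32.5 and 24.8 (log2 -2.40 ± 0.20), Hdc, the histamine-forming enzyme, from 8879 and 8487 to 5075 and 4984 (log2 -0.79 ± 0.05), and Srgn, the granule proteoglycan serglycin, from 5717 and 6126 to 3484 and 3705. Among megakaryocyte markers, 0 rose and 11 fell without library 1 of Dex plus GW7647.

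Of 25 tested granulocyte and eosinophil markers, 17 were called lower and 0 higher, with a median of -0.85. The neutrophil granule proteases Elane, Prtn3 and Ctsg fell by 1.31 ± 0.11, 0.82 ± 0.09 and 0.82 ± 0.08, and Mpo, myeloperoxidase, from 3572 and 3353 to 2353 and 2359.7 (edgeR adjusted p = 0.00029). The granulocyte factors Cebpa and Cebpe were not called (-0.38 ± 0.11 and -0.68 ± 0.22). Of 12 tested monocyte and macrophage markers, 5 were called lower and 0 higher, with a median of -0.73. Spi1, the myeloid factor PU.1, fell from 2745 and 2444 to 1404 and 1410.2 (log2 -0.88 ± 0.07, edgeR adjusted p = 3.43e-05), and Lyz2, lysozyme, from 341 and 362 to 206 and 207. Among monocyte and macrophage markers, C1qa, C1qb, C1qc, Cd163, Lyz1 and Timd4 had 0 reads in all 4 libraries, and Ly6g had 0 among granulocyte markers. Of the monocyte markers, 0 rose and 3 fell without either library of Dex plus GW7647.

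The summed level of each marker list moved the same way in both libraries. Megakaryocyte markers summed to 91145 and 92884 in untreated cells, 44734 and 43391 with Dex, and 34188 and 34439 with both drugs. Mast cell and basophil markers summed to 13307 and 13427 in untreated cells, 26125 and 26935 with Dex, and 15488 and 15640.5 with both drugs. Granulocyte and eosinophil markers summed to 17910.1 and 19121 in untreated cells, 8818 and 8534 with Dex, and 5194 and 5272 with both drugs, and monocyte and macrophage markers to 3516 and 3513 in untreated cells, 3964 and 3734 with Dex, and 2272 and 2284 with both drugs. Each sum is weighted toward its members with the most counts. With Dex, Spi1 alone had 2745 and 2444, Hdc 8879 and 8487, and Il1rl1 6888 and 7371. Cma1 and Lyz2 were lower with Dex than in untreated cells, against their sums. Cma1 had 864 and 843 untreated and 215 and 208 with Dex, and Lyz2 1307 and 1226 and 341 and 362. Markers of these lists fell with the inflammatory, adhesion and receptor genes described above, and their part in those falls was not tested. Antigens used for depletion in the sort included CD34, CD41, which is the product of Itga2b, and CD16/32, the products of Fcgr3 and Fcgr2b. Several lists share members with the marker lists, such as Itga2b and Pecam1. Outside the blood lineages few markers were detected: 6 of 20 hepatoblast markers were tested and 2 called lower (summed 385 and 352 with Dex and 259 and 243 with both drugs), and 8 of 20 endothelial and stromal markers were tested and 3 called lower (summed 1659.7 and 1647 with Dex and 1322 and 1226 with both drugs). Of 21 lymphoid markers 4 were tested and 1, Nkg7, was called lower. Single libraries decided some calls in edgeR, which were lost without library 1 of Dex plus GW7647 for Fcgr2b and Nkg7 (adjusted p from 0.12 to 0.253), library 2 of Dex plus GW7647 for Fcgr2b and Nkg7 (adjusted p from 0.137 to 0.155), Dex library 1 for Nkg7 (adjusted p = 0.186) and Dex library 2 for Fcgr2b (adjusted p = 0.0784). Under DESeq2 the same held for Fcgr2b (adjusted p = 0.0776). For hepatoblast markers, 0 rose and 0 fell without either library of Dex plus GW7647 and 0 rose and 1 fell without either Dex library. Among lymphoid markers, 0 rose and 0 fell without either library of Dex plus GW7647 or Dex library 1.

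**Figure D5:**
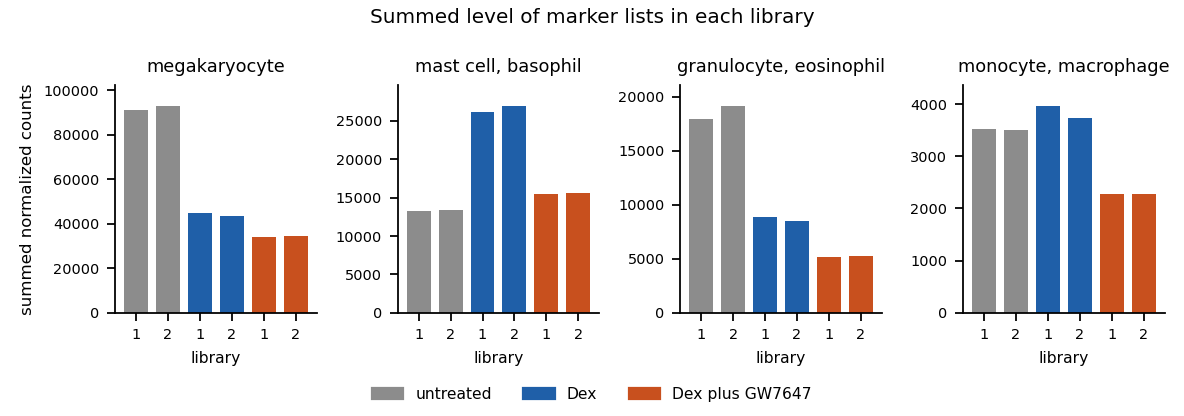
Bars give the sum of normalized counts over the members of 4 marker lists in each of the 6 libraries, coloured by group. With both drugs the sums lie below those with Dex in all 4 lists, and the sums of the 2 libraries of a group are close.

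Mitochondrially encoded genes of the respiratory chain were not called for any of 12 tested, with 0 higher and 0 lower in edgeR, although their median was 0.38; DESeq2 called 0 as well, and 0 had an unadjusted p below 0.05 in edgeR. Without Dex library 2, however, all 12 were called higher. The groups overlapped: mt-Co1 stood at 259120.0 and 390185 with Dex and 371206 and 414649 with both drugs, mt-Cytb at 55968 and 99234 and 98050.5 and 112238, and Dex library 1 was the lowest for both. Nuclear-encoded subunits of complex I were not called for any of 36 tested (median -0.02), with 0 called by DESeq2, 1 called higher without Dex library 2, and 3 at an unadjusted p below 0.05 in edgeR.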

How the data were processed

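RNA of 6 libraries of fetal liver BFU-E was measured by RNA sequencing (TRIzol extraction, TruSeq preparation), and 4 enter the comparison. The deposited counts are whole numbers of reads per Ensembl gene, made by the authors with TopHat 1.4.1, HTSeq and DESeq on mm9 and NCBIM37, per the submitters' processing notes. Whether HTSeq counted by strand is not given in the sources used here, so overlapping genes are uncertain. The authors' fold, p and normalized columns (8 of the last) were not used, and 0 count columns were left without a sample. Symbols were joined by Ensembl identifier from GENCODE M21 (GRCm38) for 32897 of 37620 identifiers (87.4%), 13577 of them tested; that annotation gave the gene order, and promoters are RefSeq's.

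Counts of all 6 libraries were fitted with edgeR 4.0.16 in R 4.3.3: filterByExpr with a minimum count of 10, TMM scaling, the quasi-likelihood test with group as factor, and Benjamini-Hochberg adjustment over 14125 genes with a threshold of 0.05. The untreated libraries share the estimate of spread. Normalized counts are counts divided by TMM-scaled library sizes relative to their mean. Log2 differences are given ± SE, and values in pairs are the 2 libraries of a group. The procedure was tested on simulated data drawn with the same fixed spread setting for every gene and group. That test does not show how the procedure performs at the spread of these libraries. Alternatives were DESeq2 1.42.0, total count scaling, other filters, only the 4 libraries compared, the replicate number as a block, and each library left out.

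Members and gene lists were chosen with earlier results of these data known. Genes were named by size (the top 15 rises and top 15 falls that passed the threshold, where the 4 libraries averaged 50 or more normalized counts), by list (the 5 smallest p-values among the calls of each of 30 lists), or as fixed receptor, erythroid and target genes. Other genes, 14 families and sets, and the promoter hexamer were chosen after their values were seen. Some genes of these lists are not reported here.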

Additional observations from a re-analysis of the deposited data

How the results depend on the processing

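The count of 1374 calls moved with the processing, and each call that could be tested kept its direction under every alternative run. All alternatives use the same libraries, so the kept direction is not separate evidence. DESeq2 called 1124 genes (224 higher, 900 lower), total count scaling 1379 (258 and 1121), and a minimum count of 50 gave 1393 (291 and 1102). Without a filter on low counts there were 2085 (578 and 1507), and on the 4 libraries alone 1219 (245 and 974). With a library left out, the calls ranged from 548 to 1729, the higher calls from 54 to 618 and the lower calls from 484 to 1111; 46 of 136 named calls were lost without library 1 of Dex plus GW7647 and 46 without its library 2. The cause was not tested.

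The replicate numbers of the labels were not shown to pair the libraries. Across genes, deviations of same-numbered libraries correlated at 0.134 between Dex and Dex plus GW7647, -0.200 between untreated and Dex, and -0.0394 between untreated and both drugs. With the replicate number as a block, 998 genes were called, 154 higher and 844 lower. On only the 4 libraries compared, an alternative chosen after seeing the data, the block gave 2487, 802 and 1685.

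5 named genes that were not called changed sign when single libraries were left out, and none was called in those fits. Over these fits the log2 difference ran from -0.0937 to 0.0899 for Epor, from -0.0318 to 0.0192 for Gata1, from -0.146 to 0.0687 for Klf1, from -0.0668 to 0.0671 for Nr3c1 and from -0.231 to 0.0751 for Rxra. Genes with few reads, such as Ppara, Pdk4 and Acot1, did not pass the count filter, and a change in them was not detectable at this depth.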

Other observations

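Some families of genes that sit side by side in the genome were called lower in several members each. These families were picked after the values were seen, so the counts are descriptions. The interleukin 1 receptor family was called lower for 5 of 8 tested members and higher for 0, including 4 neighbours in the gene order: Il1r2, Il1r1, Il1rl2, the interleukin 36 receptor, and Il1rl1, the interleukin 33 receptor, at log2 -1.09, -1.69, -1.51 and -0.66. Il1rl2 stood at 15.9 and 4.63 normalized counts in untreated cells, 525 and 585 with Dex and 192 and 197 with both drugs. The shared accessory chain Il1rap was not called (log2 0.16). All 4 CD200 receptors were called lower, also as neighbours (Cd200r1, Cd200r4, Cd200r2, Cd200r3, log2 -0.59, -1.44, -2.08 and -1.49), with reads that may be shared among these near copies. The SLAM family was called lower for 5 of 6 tested members. Further runs of at least 3 adjacent genes called lower were Cxcl5, Ppbp and Pf4, S100a6, S100a8 and S100a9, and Ly6e, Ly6a and Ly6c2. Ly6a, which encodes Sca-1, an antigen used to deplete the cells, was at low level, 12.3 and 10.3 with Dex and 1.81 and 1.18 with both drugs. The edgeR threshold was missed without library 1 of Dex plus GW7647 for Il1r2 and Ly6a (adjusted p from 0.105 to 0.153), library 2 of Dex plus GW7647 for Cd200r2, Il1r2, Ly6a and Ly6c2 (adjusted p from 0.0507 to 0.151), Dex library 1 for Cd200r2 (adjusted p = 0.0542) and Dex library 2 for Cd200r2 (adjusted p = 0.051). DESeq2 did not call Il1r2 (adjusted p = 0.155). Of the interleukin 1 receptor family members, 0 rose and 3 fell without either library of Dex plus GW7647.

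Annexins, which bind membranes with calcium, were called lower for 6 of 9, among them Anxa2, from 4958 and 4698 to 2203 and 2204 (edgeR adjusted p = 1.75e-06), and its partner S100a10 fell by 0.80 ± 0.05. Enzymes and receptors of eicosanoids were called lower for 6 of 17, with Alox12 and Tbxas1 at log2 -0.73 ± 0.08 and -0.76 ± 0.09. In the other direction, 3 of 6 REEP genes, which shape the endoplasmic reticulum, were called higher: Reep6 from 1804 and 1839 to 2868 and 3039 (edgeR adjusted p = 3.16e-05), Reep1 by 0.48 ± 0.07 and Reep4 by 0.24 ± 0.06. In edgeR no cytosolic or mitochondrial ribosomal protein gene was called, of 76 and 77 tested, with medians of 0.04 and 0.02; DESeq2 called 1 and 0, and at an unadjusted p below 0.05 in edgeR there were 5 of the first and 5 of the second. Without Dex library 2, edgeR called 9 cytosolic ones higher, and 2 mitochondrial ones higher and 1 lower. Some calls were not made by edgeR without library 1 of Dex plus GW7647 for Reep4 (adjusted p = 0.234), library 2 of Dex plus GW7647 for Reep4 (adjusted p = 0.129) and Dex library 1 for Reep4 (adjusted p = 0.0826). Under DESeq2 the same held for Reep4 (adjusted p = 0.0709).

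Gm10800, chosen after its value was seen, stood at 29.3 and 33.8 normalized counts with Dex and at 10.8 and 861 with both drugs, so library 2 of Dex plus GW7647 was high by itself, and the gene was not called (edgeR adjusted p = 0.0956).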
